A study of Mus musculus with 7 samples.

Results

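The sodium and calcium pump isoforms described here are 7 genes, taken from the deposited count table by gene symbol: the sodium pump beta subunits Atp1b1, Atp1b2 and Atp1b3 and the plasma membrane calcium pumps Atp2b1, Atp2b2, Atp2b3 and Atp2b4. All 7 were found among the 55367 genes of the table, and all 7 passed the filter on low counts. They were measured by bulk RNA-seq in 7 libraries from brains of C57BL/6J mice labelled P90, with no genetic change named in the labels. The labels put 3 libraries in the group noCRS and 4 in the group CRS. They do not spell CRS out, and the series title speaks of chronic stress. The RNA is labelled as that of prefrontal neurons (medial prefrontal cortex) with axons to the lateral habenula. The sources used here do not say how these cells were found and separated, nor whether each library is its own animal, so a p-value covers the spread between libraries alone, which may be technical.

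The sodium pump exports sodium and imports potassium at the cost of ATP, and it restores the ion gradients that each action potential runs down. Its alpha subunit does the transport, and its beta subunit is needed for the folding of the alpha subunit and its delivery to the cell surface. In brain, Atp1b1 is known as the main neuronal beta subunit, Atp1b2 as the glial one, also called the adhesion molecule on glia, and Atp1b3 as a widely expressed one. The plasma membrane calcium pumps expel calcium from the cell and are activated by calmodulin. Atp2b1, Atp2b2 and Atp2b3 are known from neurons, Atp2b1 also from many other tissues, and Atp2b4 is widely expressed.

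Library totals ran from 28677703 to 39965667 counts, and 3 counts in 1 library corresponded to 0.0724 to 0.099 CPM (TMM-scaled counts per 1e6), a floor that covers counting error only. TMM is the scaling of library sizes by the trimmed mean of M values. CRS replicate 2 stood apart on the first principal component (score 236, against -104 to 45.7 in the others). Glial transcripts were abundant in both groups: 8 oligodendrocyte markers summed to 32132 to 37181 CPM in the noCRS libraries and 26561 to 52279 CPM in the CRS libraries. Markers of the labelled cell type were low in noCRS: 8 excitatory neuron markers summed to 20.1 to 39.9 CPM there, against 496 to 747 CPM in CRS, and Slc17a7, their vesicular glutamate transporter, had 0 counts in noCRS replicates 2 and 3. In such bulk samples, fewer cells of a type and less RNA per cell cannot be told apart.

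The neuronal sodium pump subunit Atp1b1 and the calcium pump Atp2b1 rose in the CRS libraries, 3.41-fold and 2.74-fold. The glial subunit Atp1b2 was 2.29-fold lower in CRS, with no overlap between the groups, but was short of the threshold. Atp1b3 had nearly equal means. With p-values from edgeR (quasi-likelihood test), adjusted by Benjamini-Hochberg over 17833 tested genes, 2 of the 7 isoforms rose and 0 fell, where 2.3% of all tested genes were called (2.07% higher and 0.23% lower in CRS). At an unadjusted p below 0.05 there were 4 of the 7 isoforms, against 13.6% of tested genes. DESeq2 called 4 of the 7 isoforms and 9.14% of the genes it tested, and limma-voom 2 of the 7 and 3.58%. The groups did not overlap for 4 isoforms, 3 of them higher and 1 lower in CRS, against 16.9% of tested genes (10.1% higher and 6.74% lower). The median log2 fold change was 1.01 over the 7 isoforms and -0.02 over all tested genes. The isoforms were picked with earlier results of these data known, so these counts describe them and do not set them apart from other genes.

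**Figure D1:**
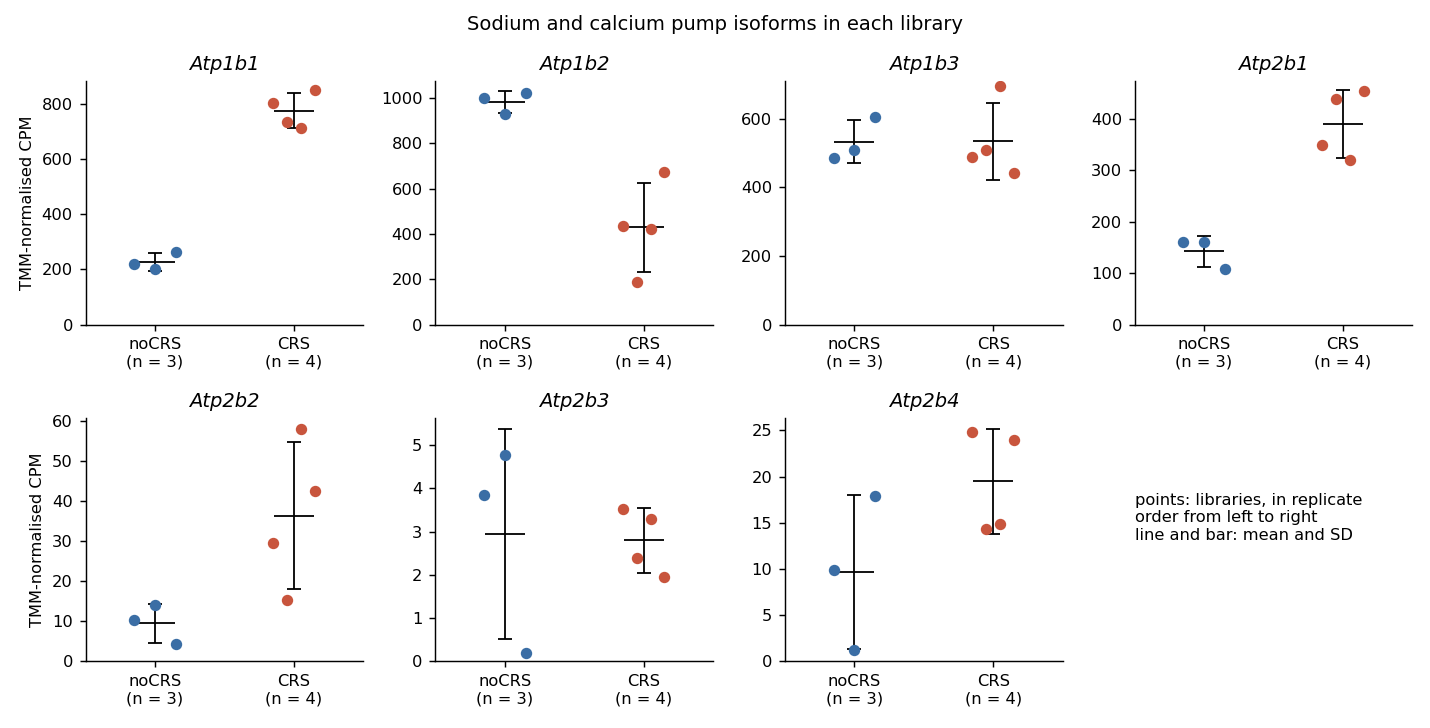
TMM-normalised CPM (vertical axes, each from 0) of the 7 isoforms in the 3 noCRS and 4 CRS libraries; points are libraries, and lines with bars are means with SD. The 4 CRS libraries lie above all noCRS libraries for Atp1b1, Atp2b1 and Atp2b2, and below them for Atp1b2.

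Atp1b1 lies on chromosome 1, 164437109 to 164458355 (GRCm38, minus strand), and its exons cover 3081 bases. It measured 218, 200.2 and 262 CPM in noCRS replicates 1 to 3 and 802, 735, 713 and 849 CPM in CRS replicates 1 to 4. The lowest CRS library was thus well above the highest noCRS library. The means were 227 ± 31.9 CPM (SD, n = 3) and 774 ± 62.4 CPM (SD, n = 4), a log2 fold change of 1.77 ± 0.16 SE (edgeR adjusted p = 0.00226), with a 95% interval of 1.41 to 2.13. Its p was the 18th smallest of the 17833 tested genes. Without CRS replicate 2 its log2 fold change was 1.78 (edgeR adjusted p = 0.00488), and the call held without each single library (adjusted p up to 0.0157). Of its exon length, 18.7% is shared with Nme7, and because the library kit does not mark strand, reads from that stretch cannot be told apart. Nme7 averaged 71.96 ± 9.73 CPM (SD) in the noCRS group and 195 ± 25.8 CPM in the CRS group (log2 fold change 1.44, edgeR adjusted p = 0.00787), and its part in the Atp1b1 value was not tested.

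Atp2b1, the most abundant of the calcium pumps here, lies on chromosome 10, 98914406 to 99026143 (GRCm38, plus strand), with 15218 exon bases. It measured 160.02, 160.2 and 107 CPM in the noCRS libraries and 349, 438, 319.8 and 454 CPM in the CRS libraries. No CRS library came near the noCRS range, in which replicate 3 was the lowest. The means were 142 ± 30.5 and 390.03 ± 65.8 CPM, and the log2 fold change was 1.45 with an SE of 0.21 (edgeR adjusted p = 0.0139; 95% interval 0.96 to 1.94). Without CRS replicate 2 it was 1.38 (edgeR adjusted p = 0.0293). The call was lost without noCRS replicate 2, with a log2 fold change of 1.55 and an edgeR adjusted p of 0.0552, which left 1 of the 7 isoforms called. It held only narrowly without noCRS replicate 1 (edgeR adjusted p = 0.0493) and without noCRS replicate 3 (edgeR adjusted p = 0.0497).

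Promoter sequence is shown for Atp1b1, which rose, and for Atp1b3, whose means were nearly equal, so that both can be read beside their values. It comes from RefSeq (GRCm38.p6), in which 5 of the 7 isoforms matched a promoter entry; Atp1b2 and Atp2b3 did not match. Windows are the 250 bases before a RefSeq start. The Atp1b1 window ends where the gene begins in the count table. The first listed Atp1b3 window reaches 11 bases into the table's gene, and those bases are not printed. The first Atp2b1 window is not shown because 236 of its 250 bases lie inside the table's gene, which begins earlier than the RefSeq start. Capitals mark matches on either strand to the motifs searched. These were TATATA, a form of the core promoter element near many gene starts; CCAAT, the sequence bound by the factor NF-Y; GGGCGG, the box bound by Sp1 and its relatives and here called GC box; TGACGTCA, the cyclic AMP response element; and CACGTG, one form of the E-box.
Atp1b1 (chr1:164458356-164458605, minus strand): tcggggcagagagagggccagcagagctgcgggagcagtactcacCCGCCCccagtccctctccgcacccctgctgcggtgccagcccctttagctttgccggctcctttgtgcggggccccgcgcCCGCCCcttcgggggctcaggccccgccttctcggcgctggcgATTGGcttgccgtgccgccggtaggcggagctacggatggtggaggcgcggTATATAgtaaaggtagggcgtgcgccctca
Atp1b3 (chr9:96364443-96364681, minus strand): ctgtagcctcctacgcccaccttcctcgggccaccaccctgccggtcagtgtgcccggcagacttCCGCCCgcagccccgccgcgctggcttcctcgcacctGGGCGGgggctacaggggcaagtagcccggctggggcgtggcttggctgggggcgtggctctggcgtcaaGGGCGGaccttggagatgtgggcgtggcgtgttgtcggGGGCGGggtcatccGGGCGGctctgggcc
The Atp1b1 window holds 1 TATATA, which begins 30 bases before the start, 1 CCAAT on the opposite strand, which begins 81 bases before it, and 2 GC boxes. The Atp1b3 window shown holds 5 GC boxes and none of the other motifs. These matches depend on the start chosen: the window of the second Atp1b3 start, inside the table's gene, holds 0 GC boxes and 1 CACGTG. Over 27018 RefSeq genes with a window of the same length, 5.56% hold TATATA, 34.5% CCAAT, 32.9% a GC box, 1.62% TGACGTCA and 6.05% CACGTG. The GC content of the 250 bases was 70.4% for Atp1b1 and 73.6% for Atp1b3, against a median of 52.0% over all windows.

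Atp1b2, the glial beta subunit, lies on chromosome 11, 69599736 to 69605942 (GRCm38, minus strand), with 4085 exon bases shared with no other gene of the table. It measured 1001, 929 and 1023 CPM in the noCRS libraries and 435, 190.2, 423 and 673 CPM in the CRS libraries. Every CRS library was below every noCRS library, and the CRS libraries were widely spread, from 190.2 CPM in replicate 2 to 673 CPM in replicate 4. The means were 984 ± 49.2 and 430.4 ± 197 CPM, a log2 fold change of -1.19 ± 0.35 SE (edgeR adjusted p = 0.152; 95% interval -1.99 to -0.40). Without CRS replicate 2 the log2 fold change was -0.96 (edgeR adjusted p = 0.0628). DESeq2 gave -1.23 (adjusted p = 0.0118).

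Within CRS, Atp1b2 and the astrocyte marker sum put the 4 libraries in the same order, though not in proportion. The 8 astrocyte markers summed to 9256, 6011 and 5754 CPM in noCRS replicates 1 to 3 and to 4537, 3399.9, 3418 and 8548 CPM in CRS replicates 1 to 4. CRS replicate 2, lowest in these markers, was also lowest in Atp1b2, and CRS replicate 4, highest among the CRS libraries, was highest in Atp1b2. CRS replicate 3 had nearly the same marker sum as CRS replicate 2, with more Atp1b2 (423 against 190.2 CPM). Between the groups the order broke: CRS replicate 4 had more astrocyte marker signal than noCRS replicate 3 (8548 against 5754 CPM) and less Atp1b2 (673 against 1023 CPM). Of the astrocyte markers 0 of 8 were called, 2 of 8 had positive fold changes and the median log2 fold change was -0.49. Their defining markers Aqp4 and Slc1a3 were detected in every library. Markers of oligodendrocyte precursors were, like Atp1b2, lower in CRS: 3 of 8 fell, 0 of 8 had positive fold changes, and the median was -1.03. Their sums were 2177 to 2629.5 CPM in noCRS and 1289, 1779, 1747 and 1292 CPM in CRS replicates 1 to 4. Within CRS the order differed: replicate 2, lowest in Atp1b2, was highest in these markers. The part of either cell type in the Atp1b2 difference was not tested.

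Atp1b3 (chromosome 9, 96332655 to 96364442, minus strand, 2389 exon bases) measured 487, 509.9 and 604 CPM in noCRS and 489, 510.5, 696 and 442 CPM in CRS. The groups overlapped fully, with means of 534 ± 62.1 and 534 ± 112 CPM. Its log2 fold change was 0.00 ± 0.19 SE (edgeR adjusted p = 0.999), with a 95% interval of -0.43 to 0.43. The sign of so small a value turned with the scaling (-0.16 with library totals alone). As a ratio of CRS to noCRS, the interval ran from 0.744 to 1.35.

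The neuronal calcium pump Atp2b2, known for calcium export at synapses and in hair cells, lies on chromosome 6, 113743831 to 114042613 (minus strand, 12612 exon bases). It measured 10.2, 14.0 and 4.28 CPM in noCRS and 29.5, 15.3, 58.1 and 42.5 CPM in CRS. The groups did not overlap, though CRS replicate 2 was close to noCRS replicate 2. The means were 9.48 ± 4.88 and 36.3 ± 18.2 CPM, a log2 fold change of 1.94 ± 0.58 SE (edgeR adjusted p = 0.166; 95% interval 0.60 to 3.28). This point estimate was above that of Atp1b1, with an SE over 3 times as large. Without CRS replicate 2 it was 2.18 (edgeR adjusted p = 0.0816), and DESeq2 gave 1.90 (adjusted p = 0.0122).

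The remaining 2 calcium pumps were scarce and uneven between noCRS libraries. Atp2b4 (chromosome 1, 133699457 to 133801041, minus strand) measured 9.87, 1.28 and 17.9 CPM in noCRS and 24.8, 14.3, 14.9 and 24.0 CPM in CRS. The groups overlapped through noCRS replicate 3, and the log2 fold change was 1.01 ± 0.78 SE (edgeR adjusted p = 0.716). That value was 0.49 without noCRS replicate 2, 1.81 without noCRS replicate 3 and 2.16 with limma-voom. Atp2b3 (chromosome X, 73503086 to 73571005, plus strand) measured 3.86, 4.78 and 0.185 CPM in noCRS and 3.53, 2.40, 3.30 and 1.95 CPM in CRS. All CRS values lay within the noCRS range, and the 6 counts in noCRS replicate 3 set its lower end. Its log2 fold change was -0.07 ± 1.12 SE (edgeR adjusted p = 0.993), and the 95% interval, -2.64 to 2.50, leaves changes of several fold in either direction undetectable at this depth and spread. Its sign turned with limma-voom (0.48).

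**Figure D2:**
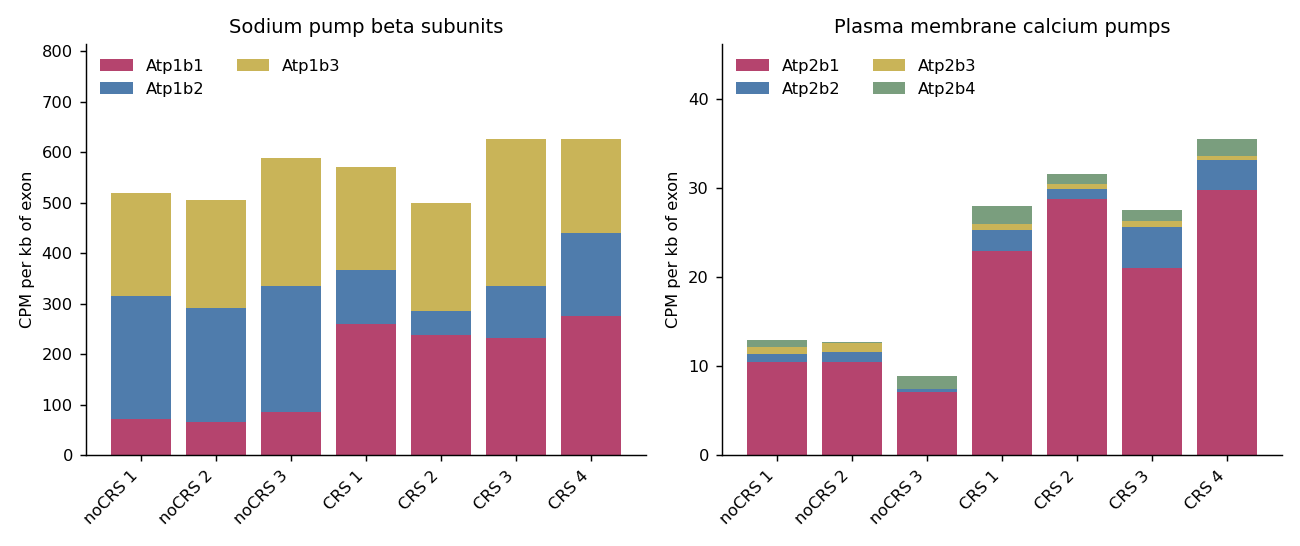
CPM per kb of exon (vertical axes from 0) of the 3 beta subunits and the 4 plasma membrane calcium pumps, stacked in each of the 7 libraries. The beta subunit totals overlap between groups while the Atp1b1 part grows and the Atp1b2 part shrinks; the calcium pump totals are higher in every CRS library, and Atp2b1 is the largest part in all 7.

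Levels of different genes were compared per kb of exon. In noCRS the order was Atp1b2 (241 ± 12.03 CPM per kb), Atp1b3 (223 ± 26.0), Atp1b1 (73.7 ± 10.4) and Atp2b1 (9.36 ± 2.01 CPM per kb). In CRS it was Atp1b1 (251 ± 20.3 CPM per kb), Atp1b3 (224 ± 46.8), Atp1b2 (105 ± 48.3) and Atp2b1 (25.6 ± 4.32 CPM per kb). The first and last of the beta subunits thus changed places. Neighbours whose libraries overlapped were Atp1b2 and Atp1b3 in noCRS and Atp1b1 and Atp1b3 in CRS. Atp2b2, Atp2b3 and Atp2b4 stayed at or below 4.61 CPM per kb in every library. Among them Atp2b2 and Atp2b4 overlapped in both groups, and Atp2b3 (0.58 ± 0.15 CPM per kb) was below both in every CRS library.

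The beta subunit total hardly differed while its makeup did. Summed over Atp1b1, Atp1b2 and Atp1b3, the level was 519.9, 506 and 588 CPM per kb in noCRS and 571, 499 and 626 (replicate 3) and 625 (replicate 4) CPM per kb in CRS, so the groups overlapped. The means were 538 ± 44.2 and 580.4 ± 60.2 CPM per kb. Within that total the share of Atp1b1 was 13.6%, 12.8% and 14.5% in noCRS and 45.6%, 47.8%, 36.9% and 44.1% in CRS. The share of Atp1b2 was 47.2%, 44.95% and 42.5% in noCRS and 18.6%, 9.34%, 16.5% and 26.3% in CRS. Neither of these shares overlapped between the groups, while that of Atp1b3 did (41.5% ± 1.99 and 38.7% ± 7.53). These shares are a description and carry no test.

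For the calcium pumps the total differed and the makeup did not separate the groups. Summed over the 4 genes, the level was 12.9, 12.7 and 8.89 CPM per kb in noCRS and 28.02, 31.6, 27.5 and 35.6 CPM per kb in CRS, a ratio of means of 2.66 with no overlap. Atp2b1 made up 81.1% ± 1.71 (SD, n = 3) of it in noCRS and 83.2% ± 6.01 (SD, n = 4) in CRS. Atp2b2 held 6.26% ± 2.44 and 9.6% ± 5.34, and Atp2b4 7.84% ± 7.95 and 5.21% ± 1.54. Since Atp2b1 is most of the total, the total carries little beyond the Atp2b1 result.

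**Figure D3:**
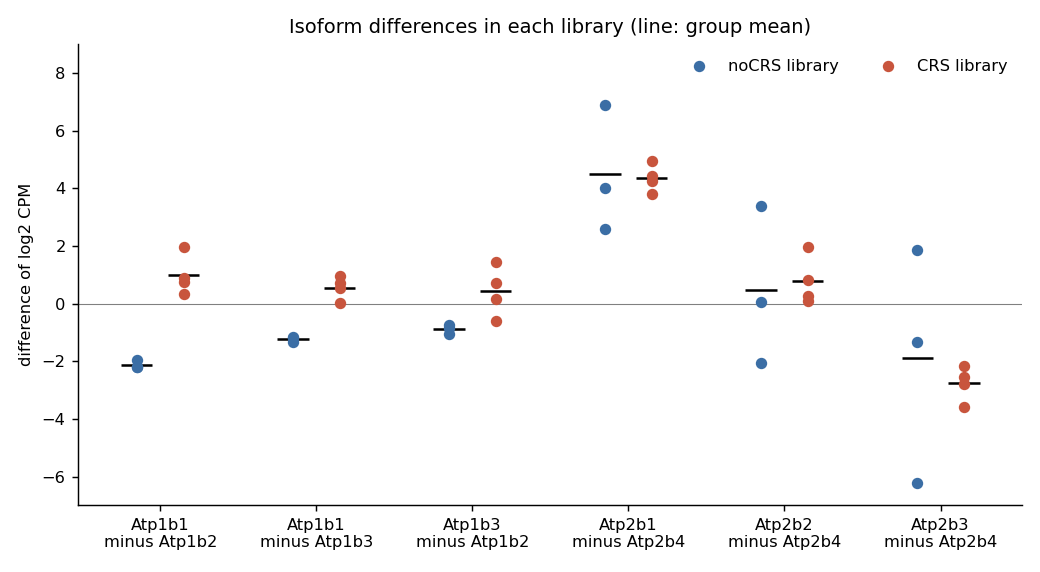
Difference of log2 CPM between 2 isoforms (vertical axis) for 6 pairs in each library, noCRS and CRS side by side, with a line at each group mean. The 3 sodium pump pairs separate the groups; the 3 calcium pump pairs overlap, with the noCRS libraries widely spread.

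Whether isoforms changed unequally was tested on the difference of their log2 CPM within each library, for 6 pairs. Atp1b1 minus Atp1b2 was -2.20, -2.21 and -1.96 in noCRS and 0.88, 1.95, 0.75 and 0.33 in CRS. The sign turned between the groups: Atp1b1 had fewer counts than Atp1b2 in all 3 noCRS libraries and more in all 4 CRS libraries. The group means differed by 3.10 on the log2 scale (exact two-sided permutation test p = 0.0571, adjusted over the 6 pairs 0.114). This p doubles the smaller one-sided share of the 35 ways to assign 3 and 4 libraries. Counted so, its smallest value is 0.0571, and no pair could pass 0.05. Another two-sided count was not run. Atp1b1 minus Atp1b3 differed by 1.79 and Atp1b3 minus Atp1b2 by 1.31, both with no overlap and the same exact permutation p. The calcium pump pairs with Atp2b4 as the second gene overlapped: the differences between the groups were -0.14 for Atp2b1, 0.32 for Atp2b2 and -0.87 for Atp2b3 (exact permutation p = 0.857, 0.857 and 0.629). The sign of each of these 3 turned when 1 library was left out, for example to 1.06 for Atp2b1, and to 1.01 for Atp2b3, without noCRS replicate 2.

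**Figure D4:**
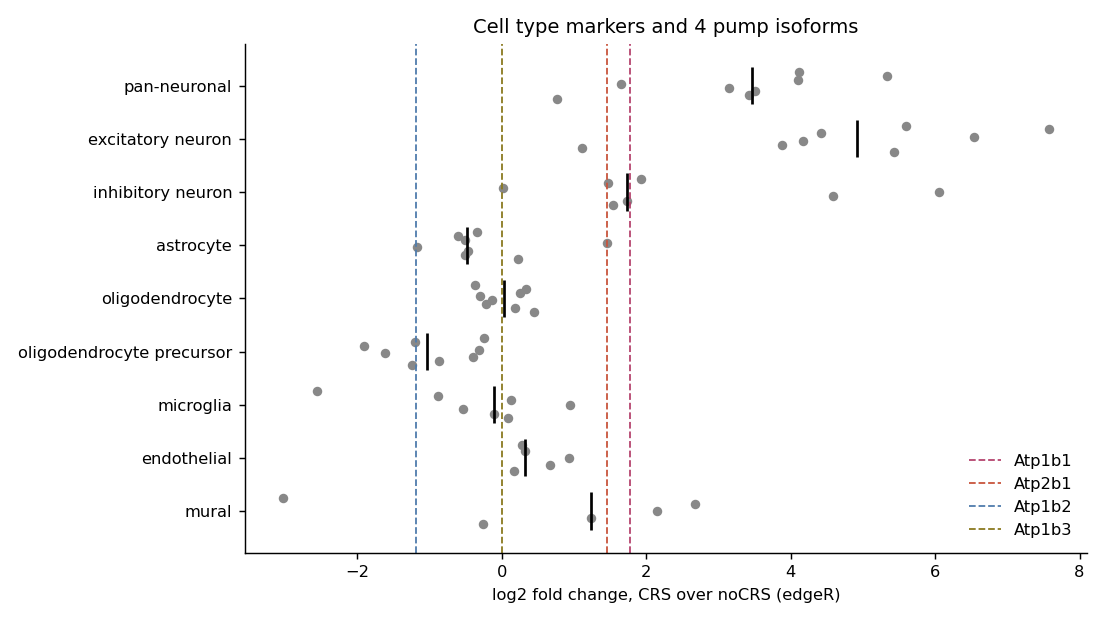
Log2 fold change, CRS over noCRS, of single marker genes (points) in 9 cell type lists, with a bar at each list's median; dashed lines mark 4 pump isoforms. Atp1b1 and Atp2b1 lie below the medians of the pan-neuronal and excitatory lists, and Atp1b2 lies near the median of the precursor list.

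Neuronal marker lists had positive medians, as Atp1b1 and Atp2b1 had positive fold changes. Of 8 pan-neuronal markers 4 rose and all 8 had a positive sign. Their median was 3.47 on the log2 scale, with sums of 264 to 374 CPM in noCRS and 2902 to 4234 CPM in CRS. Snap25 and Syt1, their defining markers, were detected in every library. Of 8 excitatory markers 3 rose, with a median of 4.92. Of 7 tested inhibitory markers 2 rose, with a median of 1.74, close to the 1.77 of Atp1b1. Single neuronal markers ranged widely, from 0.01 for Pvalb (named after its value was seen) to 7.58 for Neurod6 on the log2 scale. Slc32a1, the vesicular GABA transporter, had 0 to 4 counts in every library and was not tested. The log2 fold changes of Atp1b1 (1.77), Atp2b1 (1.45) and Atp2b2 (1.94) lay between the astrocyte and pan-neuronal medians. The part of neuronal content in these differences was not tested. Markers of other cells were called in 0 of 8 oligodendrocyte, 0 of 7 microglial, 0 of 5 endothelial and 0 of 5 mural genes tested. The sums of these 4 lists overlapped between the groups. Mural sums overlapped only through CRS replicate 2 (50.7 to 138 CPM in noCRS, 137 to 530.3 CPM in CRS), and microglial sums were 89.4 to 133 CPM in noCRS and 84.4 to 124 CPM in CRS. Markers of choroid plexus and ependyma summed to at most 1.06 CPM in any library, and blood markers to 0 CPM in noCRS and at most 15.7 CPM in CRS.

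**Figure D5:**
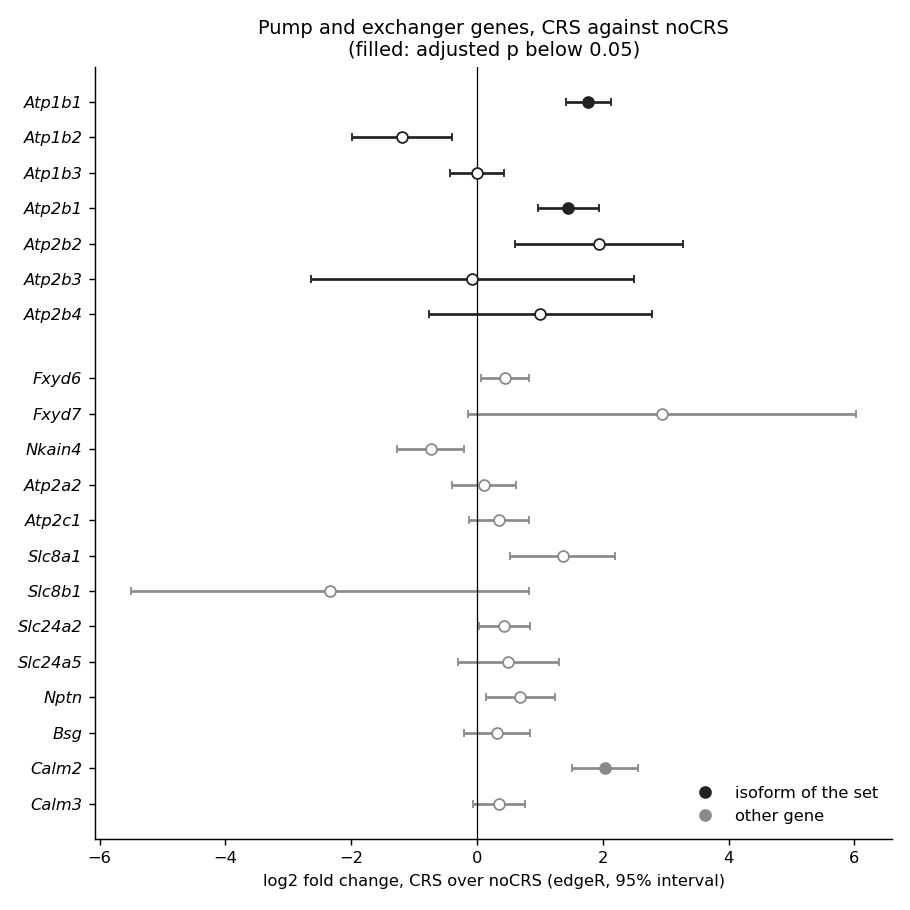
Log2 fold change, CRS over noCRS, with 95% intervals from edgeR, for the 7 isoforms (black) and 13 other pump and exchanger genes that the text names (grey); filled points have an adjusted p below 0.05. Atp1b1 and Atp2b1 are the filled isoforms, and Calm2 is the filled gene among the others.

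Around these isoforms, a list of 37 other pump and exchanger genes was read from the same test. Of 33 tested, 2 rose and 0 fell by the edgeR threshold, against 2.07% and 0.23% of all tested genes. Both that rose were calmodulin genes, so edgeR called no pump, exchanger or pump subunit of the list. Positive fold changes were seen in 21, and the median log2 fold change was 0.35 against -0.02 over all tested genes. The groups did not overlap for 7 higher and 1 lower gene of the list, against 10.1% higher and 6.74% lower among all tested genes. DESeq2 called 7 genes of the list and 9.14% of the genes it tested. Calm2, a calmodulin gene whose protein activates the plasma membrane calcium pumps, rose from 1726 ± 56.3 to 7077 ± 2048 CPM (2.04 ± 0.23 SE on the log2 scale, edgeR adjusted p = 0.00574). Calm3, another calmodulin gene, measured 128 ± 9.01 and 163 ± 29.1 CPM (edgeR adjusted p = 0.478). Calm3, Nme7, Fxyd7, Slc8a1, Slc24a2 and Nptn were named after their values were seen.

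FXYD proteins are small regulators of the sodium pump, and edgeR called 0 of 7. Fxyd6, the most abundant per kb, measured 258 ± 35.4 and 350.3 ± 47.8 CPM (edgeR adjusted p = 0.278). Fxyd7, known from neurons, measured 3.52 ± 4.02 and 27.1 ± 11.3 CPM with no overlap (edgeR adjusted p = 0.396). Of the sodium pump interactors edgeR called 0 of 4. Nkain4 measured 157 ± 11.5 and 93.997 ± 25.8 CPM (edgeR adjusted p = 0.186, DESeq2 adjusted p = 0.0367). It was the only gene of the list whose CRS libraries all lay below the noCRS libraries.

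Of the other calcium pumps, exchangers and pump partners of the list edgeR called none, where it called 2.3% of all tested genes. Of the calcium pumps of the endoplasmic reticulum and the Golgi, Atp2a2 measured 111 ± 11.2 and 119 ± 27.6 CPM (edgeR adjusted p = 0.915) and Atp2c1 193 ± 14.2 and 247 ± 60.9 CPM (edgeR adjusted p = 0.566; 18.9% of its exon length is shared with Aste1). Slc8a1, a sodium-calcium exchanger, measured 12.8 ± 4.38 and 32.9 ± 4.35 CPM with no overlap (1.36 ± 0.37 SE on the log2 scale, edgeR adjusted p = 0.118). Slc8b1, the mitochondrial exchanger, measured 10.6 ± 12.1 and 2.09 ± 2.76 CPM (edgeR adjusted p = 0.568). Its mean over the 7 libraries was the highest per kb among these exchangers, through 6.94 CPM per kb in noCRS replicate 1, while in CRS Slc8a1 was higher (1.75 against 0.602 CPM per kb). Slc24a2, a potassium-dependent exchanger of neurons, measured 62.6 ± 5.90 and 84.7 ± 8.01 CPM with no overlap (edgeR adjusted p = 0.325). Slc24a5, the most abundant exchanger of that kind per kb, measured 63.8 ± 13.5 and 90.1 ± 40.5 CPM (edgeR adjusted p = 0.675) and shares 39.5% of its exon length with Myef2. Nptn and Bsg encode the membrane partners of the plasma membrane calcium pumps. Nptn measured 96.7 ± 24.1 and 156 ± 29.7 CPM (edgeR adjusted p = 0.223) and Bsg 566 ± 203 and 705 ± 65.4 CPM (edgeR adjusted p = 0.683).

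The genes whose profiles were most like those of the isoforms were found by the root mean square difference of log2 CPM over the 7 libraries, each gene centred on its mean, among 9193 candidates. For Atp1b1 they were Mdh1, the cytosolic malate dehydrogenase, at 0.13 log2 units, and Atp6v1c1, a subunit of the vacuolar proton pump, at 0.18. Mdh1 rose from 309 ± 28.6 to 925 ± 94.8 CPM (edgeR adjusted p = 0.00319). For Atp2b1 they were Flot1 at 0.18 and Gabarapl1 at 0.20 log2 units. For Atp1b2 they were Zfp523 and Agrn at 0.16 log2 units each, with Agrn at 34.98 ± 2.57 and 15.99 ± 7.13 CPM (edgeR adjusted p = 0.289). For Atp1b3 they were Serp1 and Clec16a at 0.08. The scarce isoforms had no gene as near: Nfkbiz (0.30) and Ppm1k (0.36) for Atp2b2, Slc19a2 (0.47) and Zfp800 (0.50) for Atp2b3, and Sp1 (0.49) and L1cam (0.53) for Atp2b4. Between isoforms the smallest such difference was that of Atp1b1 and Atp2b1, at 0.35 log2 units, and the largest that of Atp2b3 and Atp2b4, at 2.25. These values describe the 7 libraries and carry no test. The difference between the 2 groups is part of each profile, and on the log2 scale it was 1.77 for Atp1b1 and 0.00 for Atp1b3.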

How the data were processed

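The authors deposited 1 table of read counts, unnormalised whole numbers for each gene and library, made with tools that include FastQC, HISAT, HISAT2, featureCounts and DESeq2 on GRCm38, per the submitters' processing notes. The column names end as default names of STAR output do, so the aligner was not settled. For strand and multiply aligned reads, no source used here gives the counting options.

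The tests ran on these counts in R 4.3.3, with edgeR 4.0.16 (TMM, default expression filter, quasi-likelihood test, no covariate, threshold 0.05). CPM per kb used the deposited exon length, as in the file headers. Log2 CPM used a prior count of 2. Isoform pairs were tested by exact permutation of library labels, with the smaller one-sided p doubled. Alternatives were DESeq2 1.42.0, limma-voom (limma 3.58.1, sample quality weights), library totals, upper-quartile and DESeq2 size factors as scalings, 2 filters on low counts, a table without mitochondrial genes, fits that each lacked 1 library, a replicate block, prior counts of 0.5 and 5, and shares of raw counts. The edgeR script was tested on simulated counts with a capped spread between libraries, which checks the code and not the power in these data.

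The isoforms and lists were chosen with earlier results of these data known. Named genes were the isoforms, called genes of the pump list, the most abundant gene per kb of each role, the 2 nearest profiles per isoform (mean of at least 10 CPM) and defining markers; some genes of the pump list are not reported here. Exon overlap was computed from the table's coordinates, which for the isoforms matched GENCODE M21.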

Additional observations from a re-analysis of the deposited data

Results flagged for a closer look

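Pln, the small regulator of the endoplasmic reticulum calcium pump, measured 8.52 CPM in CRS replicate 4, while the other CRS libraries lay between 0 and 0.066 CPM. The gap was 0.992 of the group's range, above Dixon's 95% critical value for 4 samples. Pln shares 64.7% of its exon length with Cep85l and Gm47644. It was the 1 value so marked among 42 sets of CRS values examined. Where values are normally distributed, chance marks about 1 in 20. Other genes of the pump list were also uneven in CRS without being marked. Atp2a3 (named after its values were seen) measured 5.28 CPM in CRS replicate 1 and 0 to 0.198 CPM in the other CRS libraries. None of the 7 isoforms was marked.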

How the results depend on the processing

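The rise of Atp1b1 kept its direction under 16 of 16 alternatives and its call under 15, and that of Atp2b1 under 16 and 14. With DESeq2, 1631 genes were called (1221 higher and 410 lower), 4 isoforms and 7 other pump genes, and Atp1b2 (log2 fold change -1.23) and Atp2b2 (1.90) passed. limma-voom called 639 genes (117 lower). Library totals gave 64 lower genes, moved the median of all genes by -0.16 and the share of calls that were higher from 90% to 79.5%. That share was 74.9% with DESeq2. Without single libraries, 142 to 352 genes were called, 138 to 313 higher and 4 to 39 lower, and 1 to 2 isoforms and 1 to 3 other pump genes. The lowest counts came without noCRS replicate 2. Without single libraries the log2 fold change of Atp2b1 was 1.29 to 1.56, that of Atp1b3 -0.17 to 0.10 and that of Atp2b3 -0.62 to 0.47. Atp1b3 also turned sign with DESeq2 (-0.0250), limma-voom (-0.0152), DESeq2 size factors (-0.0250), library totals (-0.16) and upper-quartile factors (-0.0549), and Atp2b3 with limma-voom (0.48). Atp2a2 turned to -0.0436 with library totals. Without single libraries the difference of Atp2b1 minus Atp2b4 ran from -1.10 to 1.06, that of Atp2b2 minus Atp2b4 from -0.93 to 1.79 and that of Atp2b3 minus Atp2b4 from -3.02 to 1.01. In raw counts, not divided by length, Atp1b2 made up 56.5% of the beta subunits in noCRS, Atp1b3 30.5% there and 31.1% in CRS, and Atp2b1 86.2% of the calcium pumps in noCRS. The cause of these shifts was not tested.

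Pairing of libraries by replicate number was not seen. Deviations of same-numbered libraries had correlations of 0.0153, -0.00319 and 0.0228 over 17833 genes, and 1 of the 3 noCRS libraries was nearest to its own number. With so few libraries these values cannot exclude a link between same-numbered libraries, and CRS replicate 4 has no noCRS library of its number. With the replicate number as a block, 12 genes were called, 12 higher and 0 lower, with 0 isoforms and 0 other pump genes among them. With that replicate block Atp1b1 had a log2 fold change of 1.73 (edgeR adjusted p = 0.0731), Atp2b1 1.38 (edgeR adjusted p = 0.102), Atp2b3 0.72 and Atp2a2 -0.00426.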
